A study of Homo sapiens with 29 samples.

Results

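The replication-dependent histone cluster on chromosome 6 was defined as 2 blocks of build hg19, chr6:26000000-26300000 and chr6:27090000-27880000. Peaks of 29 ATAC-seq libraries that overlapped these blocks were merged over all libraries into 167 accessible regions, of 166696 merged regions genome-wide. ATAC-seq reads open chromatin, where a transposase can cut and tag the DNA. All libraries came from 22Rv1, a human prostate cancer cell line, and exposure to a compound or its vehicle lasted 3 h.

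Parental 22Rv1 cells gave 5 groups of 3 libraries: DMSO at 0.1%, the covalent stereoprobe WX-02-23 at 20 µM, its stereoisomer WX-02-43 at 20 µM, and pladienolide B (PladB) at 10 nM and at 100 nM. PladB is a ligand of the splicing factor SF3B1. Engineered 22Rv1 cells gave 7 groups of 2 libraries, and all of them overexpressed Y36C-PHF5A, a spliceosome protein with a change that blunts such ligands. These cells also carried a doxycycline (Dox)-inducible FOXA1, either WT-FOXA1 or C258A-FOXA1, which lacks the cysteine that WX-02-23 binds. FOXA1 is a pioneer factor that opens chromatin in prostate cells. Both engineered lines had groups with Dox that received DMSO, WX-02-23 at 20 µM or PladB at 100 nM. The 3 h apply to these compounds and to DMSO, and the duration of Dox is not given here. A group of the WT-FOXA1 line without Dox received DMSO. The engineered lines still carry endogenous FOXA1, and the labels do not say whether a line is 1 clone. No label says whether replicates are separate cultures, so p-values measure only the spread between these libraries.

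Replication-dependent histone genes encode the H2A, H2B, H3 and H4 proteins of the nucleosome core and the linker histone H1. They are short genes without introns that are transcribed mainly in S phase, when new DNA must be packed, and their mRNAs end in a stem-loop instead of a poly(A) tail. In human cells most of them lie in this cluster, and transfer RNA (tRNA) genes lie among and beside them.

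The promoters of 1 gene per histone family are printed here because they show the short motifs of these gene families. They are the first gene of each family with a promoter sequence in RefSeq order from H1-1 on. Each stretch is the 150 bases that end at the base before the transcription start, 5′ to 3′ on the gene's strand, from RefSeq build GRCh38.p14. Capitals mark TATAAA (the TATA box), CCAAT (the CCAAT box) and ATTTGCAT (the octamer), each searched on both strands, so that ATTGG and ATGCAAAT are the same motifs on the other strand.
H1-1 (linker H1), chr6:26017788-26017937, minus strand: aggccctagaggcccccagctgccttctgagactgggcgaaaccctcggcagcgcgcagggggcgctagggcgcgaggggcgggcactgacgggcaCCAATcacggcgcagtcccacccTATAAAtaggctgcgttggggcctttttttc
H2AC4 (H2A), chr6:26033619-26033768, minus strand: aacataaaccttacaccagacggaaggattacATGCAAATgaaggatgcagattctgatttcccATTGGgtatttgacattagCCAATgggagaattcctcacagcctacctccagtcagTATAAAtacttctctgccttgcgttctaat
H2BC3 (H2B), chr6:26043714-26043863, minus strand: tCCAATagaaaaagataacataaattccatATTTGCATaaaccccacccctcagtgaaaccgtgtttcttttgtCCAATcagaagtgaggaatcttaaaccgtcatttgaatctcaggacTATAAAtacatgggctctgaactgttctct
H3C1 (H3), chr6:26020301-26020450, plus strand: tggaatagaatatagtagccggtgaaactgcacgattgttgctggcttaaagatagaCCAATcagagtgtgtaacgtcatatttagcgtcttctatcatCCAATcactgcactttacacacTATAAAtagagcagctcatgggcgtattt
H4C2 (H4), chr6:26027284-26027433, minus strand: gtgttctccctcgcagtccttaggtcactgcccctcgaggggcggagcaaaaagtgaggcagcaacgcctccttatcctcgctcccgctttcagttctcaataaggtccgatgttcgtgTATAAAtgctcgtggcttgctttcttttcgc

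All 5 printed promoters held TATAAA, whose first base lay at -31 to -29 counted from the start. The octamer began at -118 in the H2A promoter and at -120 in the H2B promoter, and it stood in none of the other 3 stretches. The printed H4 stretch held no CCAAT.

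The same search was run on the 250 bases before the start of every histone gene of a list of 55, of which 50 had a promoter sequence in RefSeq. TATAAA was found in 33 of these 50 (66.0%), and in 11.1% of all 27305 promoters. CCAAT was found in 43 of 50 (86.0%), against 33.0% of all promoters. All promoters of the H1, H2A, H2B and H3 genes held CCAAT (6, 11, 15 and 8), and 3 of 10 H4 promoters did. The octamer was found in 22 of 50 (44.0%), against 1.66% of all promoters, and fell mainly into 2 families: 9 of 11 H2A and 12 of 15 H2B promoters held it, with 1 of 8 H3 and no H1 or H4 promoter. TGTTTAC, a forkhead core motif of the family that FOXA1 belongs to, was found in 1 of 50 (2.0%), against 2.98% of all promoters. These matches describe letters and show no binding. The 55 genes were listed by symbol and were not placed in the hg19 blocks. The motif shares therefore need not be those of the blocks alone.

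In the RefSeq gene order the histone genes do not fill the cluster evenly. From H1-1 to H4C8 the order held 43 genes, 32 of them listed histone genes and none a tRNA gene. From H2BC11 to H2BC17 it held 100 genes, 21 of them listed histone genes and 51 tRNA genes. The histone genes there stood at both ends: 5 from H2BC11 to H2AC12 and 16 from H2BC13 to H2BC17. The 77 genes between H2AC12 and H2BC13 held no listed histone gene and all 51 tRNA genes. Peaks in hg19 were not assigned to single genes, because these gene tables are of build GRCh38.p14 and coordinates were not converted.

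Accessible regions were dense in the cluster. The 2 blocks together, 1090 kb, held 153 regions per Mb, the whole genome 55.5 and chromosome 6 57.6. Regions held by every library, meaning that each of the 29 lists had a peak there, numbered 85 of 167 (50.9%), against 21.5% of all regions and 20.4% of those on chromosome 6. Counted per length, this made 78.0 such regions per Mb in the cluster and 11.95 genome-wide. Merged regions covered 10.1% of the cluster and 2.48% of the genome. These values describe a single locus, so no test was made of it against the rest.

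The 790 kb between the blocks, which the definition left out, held 65 regions or 82.3 per Mb. Of these, 31 (47.7%) were held by all 29 libraries, at a density of 39.2 per Mb.

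Few cluster regions were seen in a single library. There were 10 of these (5.99%), against 4 of 65 (6.15%) in the stretch between the blocks and 16.9% of all regions. Another 72 regions were held by 2 to 28 libraries. Counting all 82 regions that some library lacked, 43 were held by 10 or fewer libraries, 20 by 11 to 19 and 19 by 20 to 28.

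**Figure D1:**
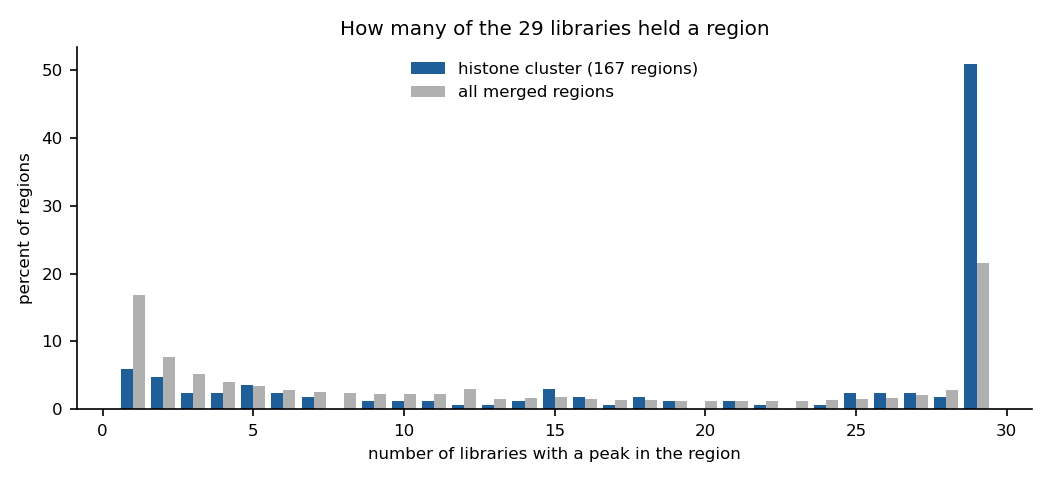
Percent of regions (y axis) by the number of the 29 libraries with a peak there (x axis), for the 167 cluster regions (blue) and all 166696 merged regions (grey). The bars at 29 libraries stand at 50.9% for the cluster and 21.5% for all regions, and those at 1 library at 5.99% and 16.9%.

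The 2 blocks differed in makeup. The first block, 300 kb, held 42 regions or 140 per Mb, of which 25 (59.5%) were held by all 29 libraries. The second block held 125 regions or 158 per Mb, of which 60 (48.0%) were held by all. Regions seen in a single library numbered 5 (11.9%) in the first block and 5 (4.0%) in the second. The median gap between neighbouring regions was 4346 bp in the first block and 3030.5 bp in the second, and 9355 bp genome-wide. Between regions held by all 29 libraries it was 5135 bp in the first block, 8913 bp in the second and 33887 bp genome-wide.

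Regions held by every library were unevenly spread. In 100 kb bins of the first block they numbered 9, 10 and 6, of 16, 13 and 13 regions. In the second block the share was highest from 600 to 700 kb, with 11 of 13 regions (84.6%), and lowest from 400 to 500 kb, with 5 of 20 (25%). The bin from 200 to 300 kb of the second block was the sparsest, with 7 regions, 2 of them held by all. The longest stretch of the second block without a region held by every library was 83163 bp.

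**Figure D2:**
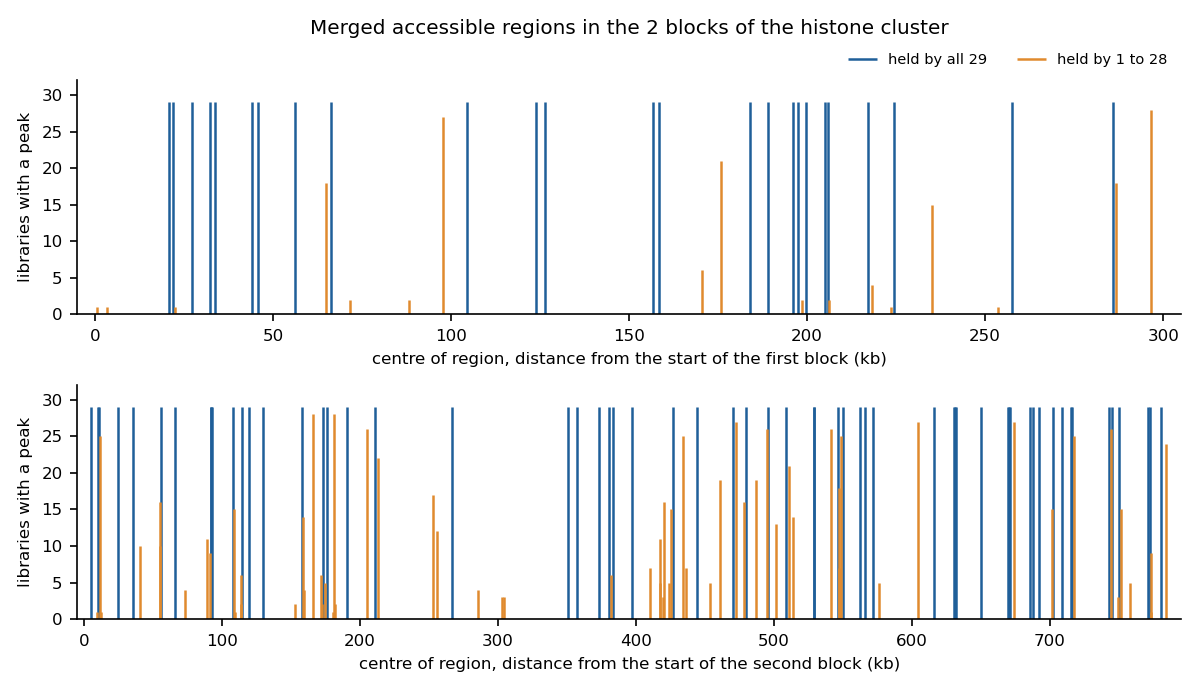
Number of libraries with a peak (y axis) at each of the 167 cluster regions by distance from the start of its block in kb (x axis), first block above and second block below. Blue lines are the 85 regions held by all 29 libraries and orange lines the 82 others. Of the 20 regions between 400 and 500 kb of the second block 5 are blue, and of the 22 between 100 and 200 kb 8 are.

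The median width of cluster regions was 548 bp (quartiles 293 and 952 bp), against 481 bp between the blocks and 351 bp for all regions. Regions held by all 29 libraries had a median width of 936 bp in the cluster, 728 bp between the blocks and 765 bp genome-wide. The other regions had one of 293, 300.5 and 303 bp, so these were not wider in the cluster. The first comparison therefore also carries the share of regions held by all 29, which was 50.9% in the cluster and 21.5% genome-wide. Of the 167 cluster regions, 35 (21.0%) were at least 1000 bp wide, against 12.3% between the blocks and 6.44% of all regions. Each of these 35 was held by all 29 libraries. A merged region is as wide as the union of its peaks over 29 lists, so its width grows with the number of libraries that hold it.

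Strength within a list was ranked by the percentile of the authors' p-value among all peaks of that list. The 85 regions held by every library had a median mean percentile of 77.8, against 75.8 for all such regions genome-wide. Their summits, the positions of highest signal, spread over a median of 234 bp between libraries, against 129 bp genome-wide. Over all cluster peaks, the median percentile of a library ran from 60.9 to 72.8, above the middle of its list in each. Fold enrichment ranked the same peaks differently. In each library the median fold of all cluster peaks lay below the median fold of the whole list. The median over libraries was 6.33 for cluster peaks and 7.31 for whole lists.

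By the p-value percentile the strongest region was chr6:27440356-27441431, with a mean percentile of 97.6 (lowest library 95.7, highest 98.8) and a mean fold enrichment of 14.6. It was a single peak in every library. The next were chr6:27739885-27740688, with a mean percentile of 97.1 and the highest mean fold of the named regions, 16.3, and chr6:27218574-27220000 with a mean percentile of 96.0. The region chr6:27113704-27115447 had a mean percentile of 93.5 and was called as at least 2 separate peaks in 28 of 29 libraries. The strongest region of the first block was chr6:26188577-26189660, with a mean percentile of 93.4.

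The widest regions were composite. The widest, chr6:26157288-26159357 (2070 bp), and the next, chr6:27559517-27561387 (1871 bp) and chr6:26123100-26124847 (1748 bp), were each called as 2 or more peaks in all 29 libraries. Their mean percentiles were 87.0, 84.6 and 87.7. Over the cluster a library had a median of 1.195 peaks per region it held. Pooled over libraries this ratio was 1.196 in the cluster, 1.17 between the blocks and 1.09 genome-wide.

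The narrowest regions held by all 29 libraries were single peaks of lower rank. They were chr6:27099625-27099896 (272 bp, mean percentile 62.6), chr6:27721857-27722178 (322 bp, 63.5) and chr6:27636283-27636643 (361 bp, 51.5). All 3 lay in the second block.

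The cluster gave a similar number of peaks in every library. It ran from 127 peaks in WX-02-23 replicate 2 of the WT-FOXA1 line to 153 in PladB replicate 2 of the same line. List length varied more, from 62832 to 98193 peaks, with a relative background of 0.546 to 1.502 reads per base recovered from the lists. A shorter list makes the cluster's share of it larger when its peaks stay, so 3 measures were followed: cluster peaks per 100000 peaks of the list, the percent of the 167 regions with a peak, and the median width of cluster peaks. Regions held by all 29 libraries cannot add to a difference in percent held. They made up 50.9% of cluster regions, 47.7% of those between the blocks and 21.5% of all regions. Differences in percent held can therefore not be ranked between the cluster and all regions. The 5 parental comparisons and the comparisons over 3 lines share DMSO libraries.

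In parental cells the percent of cluster regions with a peak was 69.5, 71.9 and 68.9 in the DMSO libraries, and 77.8, 73.1 and 73.1 with WX-02-23. All 3 WX-02-23 libraries lay above all 3 DMSO libraries. The difference was 4.59 ± 1.84 percentage points (SE, n = 3 and 3), with p = 0.1 by the exact two-sided permutation test, the smallest that 3 against 3 allows, and an adjusted p of 0.5 over 5 comparisons. Over all merged regions the same difference was 1.09, and in the stretch between the blocks 4.62.

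With WX-02-43 the percent was 72.5, 73.7 and 68.9, which overlapped DMSO, and the difference was 1.60 ± 1.71 (SE, n = 3 and 3, exact permutation p = 0.5, adjusted 0.5). The stereoisomers were compared directly at the same dose and time, as 1 pair on 3 measures. WX-02-23 minus WX-02-43 was 2.99 percentage points of regions held (exact 90% rank interval -0.599 to 8.98, n = 3 and 3, exact permutation p = 0.4, adjusted 0.5). For cluster peaks per 100000 it was -1.26 (interval -14.2 to 7.37, exact permutation p = 0.8, adjusted 0.8). For the median width it was 14.3 bp (interval -16.5 to 42.0, exact permutation p = 0.3, adjusted 0.5). None of these differences passed the test, and the intervals do not show that the stereoisomers act alike.

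PladB at 10 nM gave 73.7, 70.7 and 71.3% of regions with a peak, and at 100 nM 67.7, 68.9 and 65.3%. Against DMSO these were differences of 1.80 (exact permutation p = 0.3, n = 3 and 3) and -2.79 (exact permutation p = 0.2, n = 3 and 3), both with an adjusted p of 0.5. Over all regions the differences were -0.979 and -5.96, and in the stretch between the blocks 1.03 and -3.08.

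**Figure D3:**
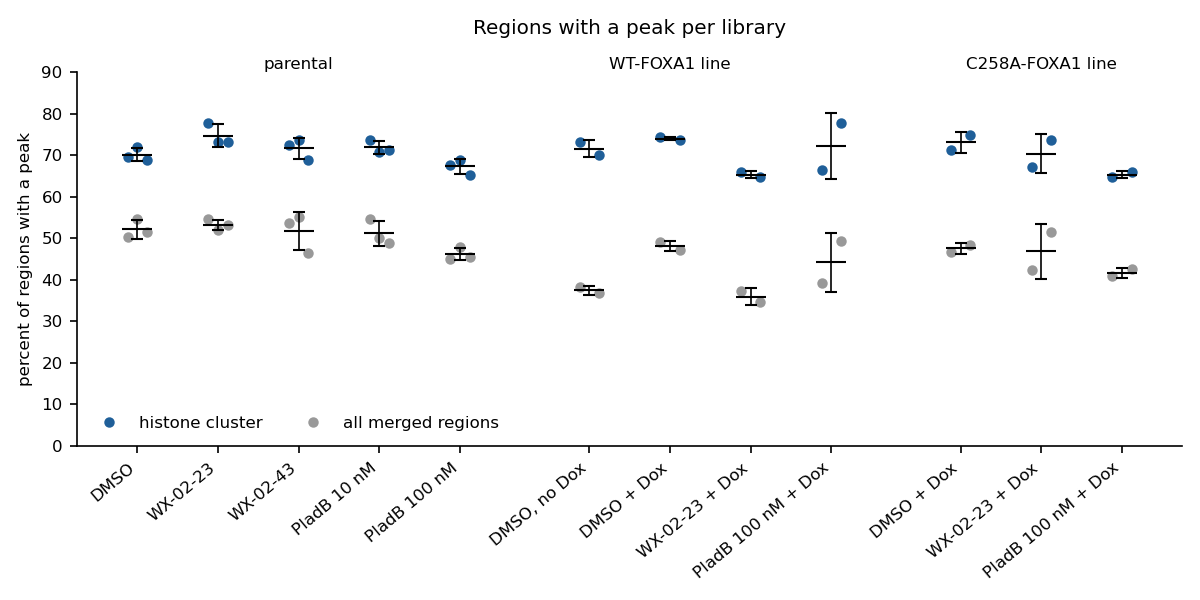
Percent of regions with a peak (y axis) in each library, by line and treatment (x axis), for the 167 cluster regions (blue) and all merged regions (grey); bars are the mean and SD. In each library the cluster lies above all regions, from 64.7% to 77.8% against 34.5% to 55.0%, and in the WT-FOXA1 line both WX-02-23 points lie at 65.9% and 64.7%, below the DMSO libraries of that line.

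Cluster peaks per 100000 list peaks were 154, 142 and 153 in parental DMSO libraries and 168, 154 and 154 with PladB at 100 nM. Each PladB library lay above each DMSO library, by 9.66 ± 6.12 on average (SE, n = 3 and 3, exact permutation p = 0.1, adjusted 0.5). The direction turned with lists of equal length, at -1.06 (exact permutation p = 0.9), and the undivided number of cluster peaks differed by -6.33 (exact permutation p = 0.2). Compared with DMSO, WX-02-23 differed by 4.34, WX-02-43 by 5.59 and PladB at 10 nM by 6.02, with overlapping groups and adjusted p of 0.667 to 0.75 by the same exact permutation test. For PladB at 10 nM the direction also turned with lists of equal length, at -2.65.

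Median width of cluster peaks was 424, 494 and 460 bp with DMSO and 383, 405 and 402 bp with PladB at 10 nM. All 3 PladB libraries lay below all 3 DMSO libraries, by 62.5 ± 21.3 bp (SE, n = 3 and 3, exact permutation p = 0.1, adjusted 0.5). PladB at 100 nM gave 402, 438 and 416 bp, which overlapped DMSO, with a difference of -40.5 bp (n = 3 and 3, exact permutation p = 0.2, adjusted 0.5). The 10 nM difference was -1.33 bp with lists of equal length, -7.17 bp over peaks in regions held by all 29 libraries (exact permutation p = 1.0 for both), -30.0 bp at a q-value of 1e-05 or below and 34.2 bp in the first block alone. The 100 nM difference was -47.3 bp with lists of equal length, -30.5 bp over peaks in regions held by all 29 and 0.833 bp in the first block, so which dose differed more from DMSO changed with the setting. The median width of the whole list moved less, by -3.00 bp at 10 nM and -11.3 bp at 100 nM.

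Each engineered group had 2 libraries, so single comparisons there are given without a test. With Dox, the WT-FOXA1 line had a peak in 74.3 and 73.7% of cluster regions under DMSO and in 65.9 and 64.7% under WX-02-23. Both WX-02-23 libraries lay below both DMSO libraries, with a mean difference of -8.68 points, against -12.2 points over all regions. Their lists, of 67815 and 62832 peaks, were shorter than the DMSO lists of 88140 and 85009, and the cluster's share was 198 and 202 peaks per 100000 against 162 and 171. Median cluster peak width was 363 and 411 bp against 425 and 442 bp.

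In the C258A-FOXA1 line with Dox, DMSO libraries held 71.3 and 74.9% of cluster regions and WX-02-23 libraries 67.1 and 73.7%. These groups overlapped. The share was 163 and 169 peaks per 100000 with DMSO and 179 and 158 with WX-02-23. The change with WX-02-23, WT-FOXA1 minus C258A-FOXA1, was 30.9 peaks per 100000 and -5.99 percentage points of regions held, both with an exact permutation p of 0.222 (n = 2 per group, smallest p of the design 0.0556, adjusted 0.666). A difference between the lines was therefore not shown.

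PladB at 100 nM in the WT-FOXA1 line gave 66.5 and 77.8% of regions held, a pair that spans both DMSO libraries. In the C258A-FOXA1 line it gave 64.7 and 65.9%, below both DMSO libraries, with a mean difference of -7.78 points. That difference was -5.85 points over all regions and -1.54 points in the stretch between the blocks. The share per 100000 was 193 and 172 in the WT-FOXA1 line and 180 and 172 in the C258A-FOXA1 line, above both DMSO libraries in each line. Median widths were 396 and 390 bp in the first and 391 and 394 bp in the second, below both DMSO libraries in each. A difference in the PladB change between the lines was not shown on any of the 3 measures, with exact permutation p of 0.556 to 0.833 (n = 2 per group).

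Dox alone was compared in the WT-FOXA1 line with DMSO. Cluster regions with a peak were 73.1 and 70.1% without Dox and 74.3 and 73.7% with it, a difference of 2.40 points. In the stretch between the blocks the difference was 3.85 points, and over all regions 10.6 points. The direction in the cluster turned with lists of equal length, at -4.11 points, and with 50% of a region covered, at -0.299 points. The number of cluster peaks was 148 and 145 without Dox and 143 and 145 with it. The lists held 69814 and 67195 peaks without Dox and 88140 and 85009 with it. The share was 212 and 216 peaks per 100000 without Dox and 162 and 171 with it, so that both Dox libraries lay below both others.

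**Figure D4:**
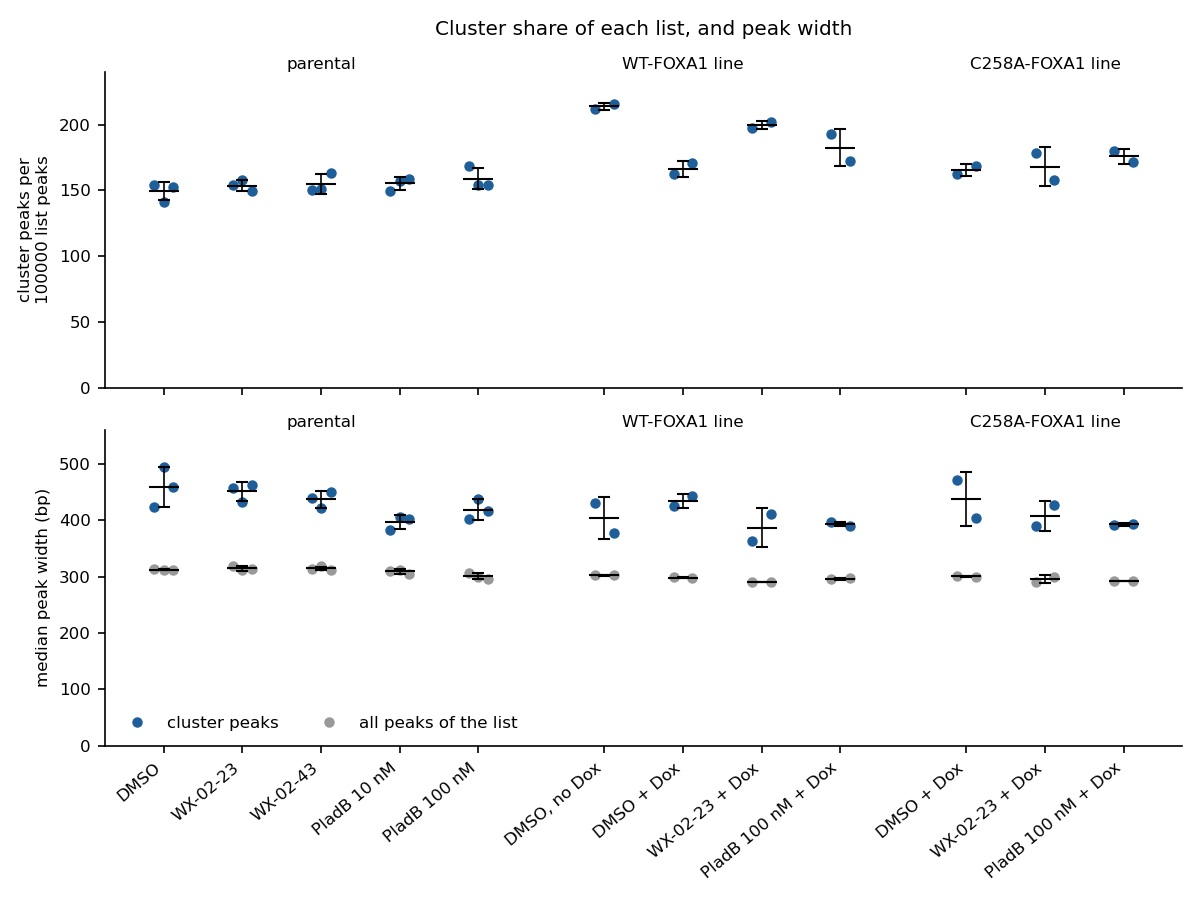
Cluster peaks per 100000 list peaks (top) and median peak width in bp (bottom) in each library, by line and treatment (x axis); blue points are cluster peaks, grey points all peaks of the list, bars mean and SD. The no-Dox libraries stand highest for the share, at 212 and 216, and in each line the PladB 100 nM mean lies above DMSO for the share and below it for the cluster width, while list widths stay at 290 to 319 bp.

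Over the 3 lines, with treatment labels permuted within each line, PladB at 100 nM passed the test on 2 of the 3 measures. The engineered lines among them overexpressed Y36C-PHF5A, and whether the changes depend on the target of PladB was not tested. The cluster's share rose by 12.01 peaks per 100000, by 9.66, 16.1 and 10.3 in the parental, WT-FOXA1 and C258A-FOXA1 lines (exact two-sided permutation p = 0.00278, the smallest of this design, adjusted 0.0167 over 6 tests, 7 and 7 libraries). Median cluster peak width fell by 42.0 bp, by 40.5, 40.5 and 45 bp in the 3 lines (exact permutation p = 0.00556, adjusted 0.0167, 7 and 7 libraries). The percent of regions held differed by -4.13 points (exact permutation p = 0.0833, adjusted 0.138), and its direction turned with lists of equal length, at 0.609 points (exact permutation p = 0.594), and after subtracting the percent over all regions, at 1.12 points (exact permutation p = 0.217). PladB replicates of the WT-FOXA1 line moved it most: it was -2.23 without replicate 1 (exact permutation p = 0.261) and -6.02 without replicate 2 (exact permutation p = 0.00556).

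The rise in share did not come with more cluster peaks: their number differed by -4.61 per library (exact permutation p = 0.2), and with all lists at the length of the shortest the share differed by 5.75 (exact permutation p = 0.0833). The fall in width held with lists of equal length, at -67.0 bp (exact permutation p = 0.00556). It missed the threshold when the bases under peaks in each region held by all 29 libraries were used, at -30.9 bp (exact permutation p = 0.0917), and in each block alone, at -42.2 bp in the first (p = 0.075, exact permutation) and -27.9 bp in the second (p = 0.119, exact permutation).

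For WX-02-23 against DMSO over the 3 lines no measure passed. The share differed by 13.5 peaks per 100000 (exact permutation p = 0.0917, adjusted 0.138, 7 and 7 libraries), of which the WT-FOXA1 line gave 33.5 and the others 4.34 and 2.54. Without replicate 2 of C258A-FOXA1 with WX-02-23 the p was 0.0194 (exact permutation, value 16.97). The percent of regions held differed by -2.26 points (exact permutation p = 0.311), with opposite signs in parental cells and the engineered lines, and the width by -28.2 bp (exact permutation p = 0.122, adjusted 0.146). Without parental DMSO replicate 1 the width p was 0.0472 (exact permutation, value -34.1 bp).

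Single regions were then followed. Gained regions were those present in every treated and absent from every control list, lost regions the opposite, and each count is given beside the same share over all regions of the comparison. In parental cells WX-02-23 gained 2 of 146 cluster regions and lost none, where 1.82% of all regions were gained and 1.18% lost. WX-02-43 gained and lost none of 137 (0.34% and 0.369% of all regions). PladB at 10 nM gained 2 of 139 and lost none (0.408% and 0.556%), and at 100 nM gained none of 137 and lost 1 (0.187% and 1.68%). WX-02-23 against WX-02-43 gained 1 of 147 and lost none (1.6% and 1.07%).

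In the WT-FOXA1 line WX-02-23 gained 1 of 137 cluster regions and lost 7, which is 5.11%, where 1.31% of all regions were gained and 11.7% lost. PladB gained 1 and lost 1 of 139 (0.915% and 3.05%). Dox gained 4 of 138, which is 2.90%, and lost 1, where 13.2% of all regions were gained and 1.1% lost. In the C258A-FOXA1 line WX-02-23 gained none of 139 and lost 2 (2.37% and 2.55%), and PladB gained none of 133 and lost 7, which is 5.26% (0.806% and 4.67%). Regions held by all 29 libraries can be neither gained nor lost, and they make up a larger part of the cluster: 85 of the 137 cluster regions in the WT-FOXA1 comparison with WX-02-23, and 35901 of 97594 over all regions. The cluster's percentages can therefore not be ranked against those of all regions. The counts also moved with the setting: the 7 regions lost with WX-02-23 in the WT-FOXA1 line were 1 with lists of equal length and 12 to 15 with any 1 of its 4 libraries left out. The 4 gained and 1 lost with Dox were 1 and 5 with lists of equal length.

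The region chr6:27345591-27346016 in the second block divided the libraries by Dox. It had a peak in none of the 15 parental libraries and in neither WT-FOXA1 library without Dox, and in all 12 engineered libraries with Dox, of both lines and all 3 treatments. Its mean percentile was 36.6 (lowest library 1.27, highest 60.5) and its mean fold 6.86. It was named because it ranked highest among the cluster regions gained with Dox. Genome-wide regions with the same pattern were not counted. Regions held by exactly 12 libraries, whichever these were, made up 0.599% of the cluster and 2.89% of all regions. The C258A-FOXA1 line has no library without Dox, so for that line Dox and line cannot be told apart.

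The other regions gained with Dox were chr6:27510349-27510608, chr6:27568273-27568779 and chr6:27203588-27203869. The first was also held by 10 of 15 parental libraries, none of which received Dox. The second was held by 11 of 15 parental libraries. The third was held by no parental library and by 6 engineered libraries. It was lost with WX-02-23 in the WT-FOXA1 line and with PladB in the C258A-FOXA1 line. The region lost with Dox, chr6:27198578-27198821, was also the one with a peak in 3 of 3 WX-02-23 and none of 3 WX-02-43 parental libraries, and it was held by 2 of 3 parental DMSO libraries.

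The regions gained with WX-02-23 in parental cells were chr6:27577047-27577407 and chr6:27507316-27507645. The first was held by 3 of 3 WX-02-23, no DMSO and 2 of 3 libraries of each other parental group, and in the C258A-FOXA1 line it was lost with WX-02-23. Its direction thus differed between lines. The second was gained with WX-02-23 and with PladB at 10 nM, and was held by 2 of 3 libraries at 100 nM. PladB at 10 nM also gained chr6:27264147-27264365, which was held by 5 libraries in all.

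The region chr6:26064791-26065120 of the first block was the one lost with PladB at 100 nM in parental cells. It was held by 3 of 3 parental DMSO, 1 of 3 PladB 10 nM and no PladB 100 nM library. In the C258A-FOXA1 line it was held by both DMSO and neither PladB library, and in the WT-FOXA1 line by both DMSO and 1 of 2 PladB libraries. Over the 3 lines this made 7 of 7 DMSO and 1 of 7 PladB libraries. It was a weak region, with a mean percentile of 22.6 and a mean fold of 5.79 where held, and the PladB lists were shorter than the DMSO lists in each line on average. With all lists at the length of the shortest, 7 libraries held it.

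Counted over the 3 lines, 2 of 155 cluster regions were held by at least 4 fewer of 7 PladB than DMSO libraries and none by 4 more, where 1.15% and 0.0768% of all regions were. The other one was chr6:27144329-27144874, held by 6 DMSO and 2 PladB libraries. For WX-02-23, 2 of 163 were held by at least 4 more of 7 libraries and 1 by 4 fewer (0.893% and 1.8% of all regions). Those held by more were chr6:27130007-27130336 (5 against 1) and chr6:27507316-27507645 (4 against 0), and the one held by fewer was chr6:27603733-27604036 (1 against 5).

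The remaining named regions were lost or gained in 1 engineered line. With WX-02-23 the WT-FOXA1 line lost chr6:27294975-27295488, which was held by 26 of 29 libraries and lacked a peak only in both WX-02-23 libraries of that line and in 1 library without Dox. With PladB that line lost chr6:27261610-27261817, which no parental library held. The C258A-FOXA1 line with PladB lost chr6:27791440-27791666, chr6:27101540-27101912 and chr6:27665872-27666096, held by 15, 25 and 5 libraries in all. The changed regions named had a mean percentile of at most 46.3 over the libraries that held them, and none was held by all 29 libraries, as the call requires.

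**Figure D5:**
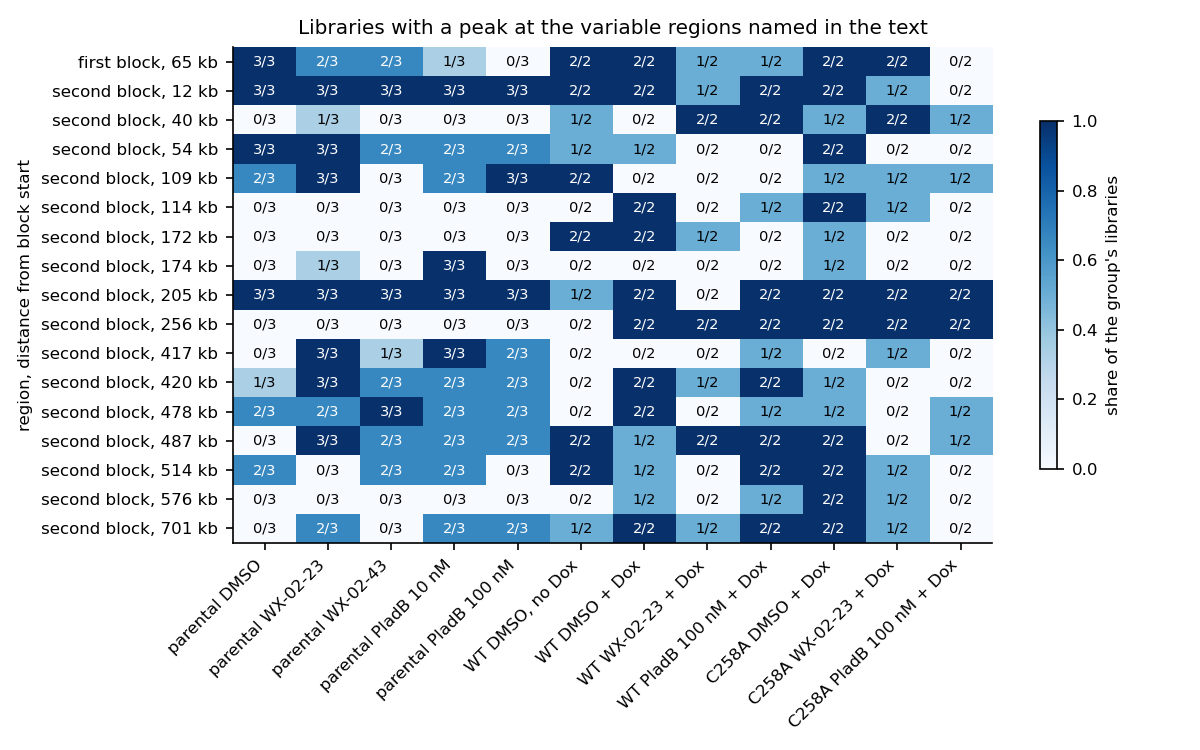
Share of each group's libraries with a peak (colour, with counts in each cell) at the 17 changed regions named in the text (rows, by distance from the start of their block) in the 12 groups (columns). The row at 256 kb of the second block is filled in the 12 libraries with Dox and empty in the 17 others, and the row at 65 kb of the first block has at most 1 library in each PladB column.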

How the data were processed

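Per the labels' protocols, a commercial ATAC-seq kit was used on 22Rv1 cells. The aligner Bowtie2, the caller MACS2 and build hg19 come from the submitters' processing notes. Their versions and options, the handling of duplicates and any transposase shift are not given in sources used here. Each library has its own peak list, so no replicates were pooled. Per peak, the authors deposited a score, a fold enrichment, a −log10 p-value, a −log10 q-value and a summit offset, in the column order of the MACS2 peak format. The lowest deposited −log10 q was 2.00 and the narrowest peak 150 bp. These values are the authors' own and served only to rank or filter peaks within a list. Read depth is not given. A relative background was read from the steps of the deposited fold values, and it depends on the authors' read extension.

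Overlapping or touching peaks of all 29 lists were merged, and holding a region meant a peak with at least 1 bp of overlap. Open chromatin below a library's detection limit counts as not held, and intensities were not compared between libraries. Groups came from the labels. Differences were tested by exact two-sided permutation with Benjamini-Hochberg adjustment over 5 parental comparisons per measure and over 6 tests across 3 lines. The 90% interval of a parental difference is the range of all pairwise differences, the exact rank-sum interval for 3 against 3.

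Named regions were the 5 strongest, 3 widest and 3 narrowest held by all 29 libraries, up to 3 gained and 3 lost per comparison by mean p-value percentile, and those held by at least 4 more or fewer of 7 treated than of 7 DMSO libraries. The cluster, the gene list and the rules were chosen with earlier results of these data known. Histone symbols and promoters came from RefSeq tables of GRCh38.p14, in which all 55 listed genes were found and 50 had a promoter. The counting and the permutation test were tested on simulated data. The tools were scipy 1.17.1, pandas 2.3.3, numpy 2.4.6 and matplotlib 3.10.9 in Python 3.11.15.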

Additional observations from a re-analysis of the deposited data

Results flagged for a closer look

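The percent of cluster regions with a peak moved in opposite directions with WX-02-23 in parental cells and in the WT-FOXA1 line with Dox. In parental cells each of the 3 WX-02-23 libraries lay above each DMSO library, and the mean difference was 4.59 percentage points. In the WT-FOXA1 line both WX-02-23 libraries lay below both DMSO libraries, and the mean difference was -8.68 percentage points. The difference between these changes was not tested. Over all merged regions the same differences were 1.09 and -12.2, and in the stretch between the blocks 4.62 and -7.69. List length moved in the same directions. With lists of equal length the differences were 2.74 in parental cells and -0.343 in the WT-FOXA1 line.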

How the results depend on the processing

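Presence of a peak depends on how many peaks a list holds, and list length varied with treatment, so small differences in the percent of regions held are not detectable in these lists. The exact permutation test of 3 against 3 libraries cannot go below p = 0.1, and comparisons of 2 against 2 have no test. Widths and counts came from MACS2 calls whose options are not given here. Of 414 values recomputed under alternatives, other than leaving out a library, 301 were called the same, 71 moved, 36 reversed, 5 lost and 1 gained the threshold. The call used direction and side of the threshold for comparisons over 3 lines, and direction alone for parental and between-line comparisons. Single engineered comparisons were set against the replicate spread. Gained and lost counts had to stay within a fixed factor, and descriptive values within an interval or a fixed factor. The cause of the changes was not tested.

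With lists of equal length, the difference in cluster peaks per 100000 was -2.65 for parental PladB 10 nM, -1.06 for parental PladB 100 nM, 3.18 for WX-02-23 against WX-02-43, 7.16 for WX-02-23 in the WT-FOXA1 line, -19.9 for Dox, 5.75 for PladB over the 3 lines and -3.98 for the PladB change between lines. The percent of regions held then differed by -1.14 for parental PladB 10 nM, -0.343 for WX-02-23 in the WT-FOXA1 line, -4.11 for Dox, 0.0 for PladB in the C258A-FOXA1 line, 0.913 for WX-02-23 over the 3 lines and 0.609 for PladB over the 3 lines. Widths differed by 12.5 bp for parental WX-02-23, -85.5 bp for WX-02-23 in the WT-FOXA1 line and -117.5 bp for PladB in the C258A-FOXA1 line. Gained regions numbered 1 for parental WX-02-23, 1 for PladB 10 nM, 0 for WX-02-23 against WX-02-43, 3 and 2 for PladB in the WT-FOXA1 and C258A-FOXA1 lines and 1 for Dox. Lost regions numbered 1 for parental PladB 10 nM, 0 for parental PladB 100 nM, 1 and 0 for WX-02-23 in the WT-FOXA1 and C258A-FOXA1 lines, 5 for Dox and 2 for PladB in the C258A-FOXA1 line.

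In the first block alone, peaks per 100000 differed by -1.06 for parental PladB 10 nM, 11.98 for WX-02-23 in the WT-FOXA1 line, -12.4 for Dox, 2.73 for PladB over the 3 lines and -0.637 for the PladB change between lines. Percent held differed by -4.76 for parental PladB 10 nM, 0.0 for WX-02-23 against WX-02-43, -3.57 for WX-02-23 in the WT-FOXA1 line and -4.76 for PladB in the C258A-FOXA1 line. Widths differed by 18.5 bp for parental WX-02-23, 34.2 bp and 0.833 bp for parental PladB at 10 and 100 nM, -61.5 bp for PladB in the WT-FOXA1 line, -42.2 bp for PladB over the 3 lines and 11.3 bp for the WX-02-23 change between lines. In the second block alone, peaks per 100000 differed by 0.022 for WX-02-23 against WX-02-43, 21.5 for WX-02-23 in the WT-FOXA1 line and -35.1 for Dox. Percent held there differed by -10.4 for WX-02-23 in the WT-FOXA1 line, and widths by -27.9 bp for PladB over the 3 lines and -3.75 bp for the PladB change between lines.

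Undivided numbers of cluster peaks differed by -6.33 for parental PladB 100 nM, 3.67 for WX-02-23 against WX-02-43, -13.5 for WX-02-23 in the WT-FOXA1 line, -2.5 for Dox, -8.5 for PladB in the C258A-FOXA1 line, -2.56 and -4.61 for WX-02-23 and PladB over the 3 lines and -13.0 for the WX-02-23 change between lines. With a q-value of 1e-05 or below, peaks per 100000 differed by 44.5 for WX-02-23 in the WT-FOXA1 line, 18.03 for PladB in the C258A-FOXA1 line and -2.35 for the PladB change between lines. Percent held then differed by -0.823 for parental PladB 10 nM and -7.41 for WX-02-23 in the WT-FOXA1 line, and widths by 2.5 bp for parental WX-02-23 and -4.0 bp for the PladB change between lines. At that threshold PladB 10 nM gained 0 regions, WX-02-23 against WX-02-43 gained 2 and lost 1, WX-02-23 lost 2 in the WT-FOXA1 line and gained 1 in the C258A-FOXA1 line, and Dox gained 1 and lost 2.

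With 50% of a region covered, percent held differed by 0.0 for parental WX-02-43, -2.20 for parental PladB 10 nM, -11.4 for WX-02-23 in the WT-FOXA1 line, -0.299 for Dox and -6.72 for PladB over the 3 lines (exact permutation p = 0.0444). The share held by all 29 libraries was then 34.7% in the cluster and 8.89% genome-wide. Parental WX-02-23 lost 1 region, PladB 10 nM gained 1 and lost 3, PladB 100 nM lost 4, WX-02-23 against WX-02-43 gained 2 and lost 1, PladB in the WT-FOXA1 line lost 3, Dox lost 3 and WX-02-23 in the C258A-FOXA1 line gained 1. With merged summit windows reaching 100 bp to either side, 27.6% of cluster regions were held by all and their median width was 303 bp. Where 1 library could go against a call, gained and lost regions numbered 5 and 2 for parental WX-02-23, 3 and 2 for the stereoisomer WX-02-43, 4 and 2 for PladB 10 nM, 3 and 5 for PladB 100 nM and 6 and 3 for WX-02-23 against WX-02-43. With only peaks in regions held by all 29, widths differed by 25 bp for parental WX-02-23 and -112.2 bp for PladB in the C258A-FOXA1 line.

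A further 3 alternatives were chosen after seeing the data. The first subtracts a percent over all regions, a smaller share of which were held by all 29 libraries and so could not move. Percent held minus the percent over all regions differed by 3.17 for parental PladB 100 nM, 3.47 for WX-02-23 and -8.23 for Dox in the WT-FOXA1 line, -1.94 for PladB in the C258A-FOXA1 line, 1.64 and 1.12 for WX-02-23 and PladB over the 3 lines and 5.53 for the WX-02-23 change between lines. Bases under peaks per region held by all 29 differed by 21.7 for parental WX-02-23, 10.5 for PladB in the WT-FOXA1 line and -30.9 for PladB over the 3 lines. Width as a percent of the list median differed by -12.7 for PladB in the WT-FOXA1 line and -1.55 for the PladB change between lines.

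Same-numbered replicates did not deviate together (correlations -0.0204 to 0.0233), and the main tests did not pair them. In groups of 2 libraries the same-numbered and other-numbered correlations are mirror values. These correlations therefore cannot decide whether same-numbered libraries were prepared together, and the labels do not say. With the replicate number as a block, PladB over the 3 lines gave an exact permutation p of 0.0156 for the share (12.01 peaks per 100000) and for the width (-42.0 bp), and the block changed no other call.

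Leaving out each library in turn, the WX-02-23 difference over the 3 lines ran from 9.92 to 16.97 peaks per 100000 and from -39.4 to -17.1 bp, and the PladB difference in percent held over the 3 lines from -6.02 to -2.23. WX-02-23 against WX-02-43 ran from -3.57 to 3.07 peaks per 100000, and the parental WX-02-23 width from -25.8 to 9.25 bp. Between lines, the PladB change ran from -4.23 to 15.97 peaks per 100000 and from -29.0 to 38.0 bp, and the WX-02-23 change from -50.5 to 16.5 bp. Gained regions ran from 2 to 4 for parental WX-02-23, 0 to 2 for WX-02-43, 0 to 2 for PladB 100 nM and 1 to 4 for WX-02-23 against WX-02-43. In the WT-FOXA1 line they ran from 1 to 5 for WX-02-23, 2 to 7 for PladB and 7 to 8 for Dox, and in the C258A-FOXA1 line from 1 to 7 for WX-02-23 and 1 to 2 for PladB. Lost regions ran from 0 to 1 for parental WX-02-23 and PladB 10 nM, 1 to 3 for PladB 100 nM and 0 to 2 for WX-02-43 against DMSO and for WX-02-23 against WX-02-43. In the WT-FOXA1 line they ran from 12 to 15 for WX-02-23, 1 to 10 for PladB and 2 to 6 for Dox, and in the C258A-FOXA1 line from 3 to 9 for WX-02-23 and 9 to 13 for PladB.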
